A study of Mus musculus with 12 samples.

Results

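The division of a cell was followed through 40 genes of mitosis and of the G2/M transition, the step at which a cell with copied chromosomes enters division. They were chosen by symbol for their known roles, and each was found once among the 32587 gene rows of every library. All 40 passed the filter for testing, which asked for at least 1 TPM (a share of a library's transcripts, corrected for transcript length) in at least 3 libraries and which 11952 rows passed. The 12 libraries came from mouse small intestinal organoids of wild type (WT), labelled as duodenum, and formed 4 groups of 3. Organoids are 3-dimensional cultures of the intestinal epithelium in which stem cells divide and their progeny differentiate. The control group received DMSO (dimethyl sulfoxide, a common solvent), and the others received cholic acid (CA), chenodeoxycholic acid (CDCA) or deoxycholic acid (DCA), which are bile acids. CA and CDCA are made by the liver, and DCA is made from CA by gut bacteria through loss of a hydroxyl group. The labels give the dose as 50 mmol/L for each acid. They give the exposure as 2 days, whereas their protocol gives 96 hours after 2 days of culture. All 4 groups were kept in the same commercial growth medium, which also supports dividing cells, and no group carries a named allele. Whether replicates were separate cultures, or came from separate animals, is not said in the labels, so the p-values rest on a spread between libraries that may be technical.

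Entry into mitosis is driven by the kinase CDK1 bound to cyclin A2, B1 or B2. The chromosomes then attach to spindle microtubules through kinetochores, a checkpoint holds the cell until every chromosome is attached, and the anaphase-promoting complex (APC/C) ends mitosis by marking securin and the cyclins for destruction. Most of these genes are transcribed in a wave late in the cell cycle, under the factors FOXM1 and MYBL2 and the MuvB complex, and they are kept low in resting cells by the DREAM complex. In the intestine, dividing cells lie in the crypt, as stem cells and as transit-amplifying progenitors, and enterocytes on the villus do not divide. In RNA from whole organoids, fewer dividing cells and less RNA of these genes per cell cannot be told apart.

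The promoters are shown first because this wave has known DNA elements. The CHR, bound by the MuvB complex, was searched as TTTGAA, the NF-Y box as CCAAT, and the E2F site of genes of the preceding S phase (the phase of DNA replication) as TTTGGCGC, TTTCCCGC, TTTGCCGC or TTTCGCGC. Each was searched on both strands of the RefSeq windows from 250 bases before to 50 bases after each gene's start (GRCm38.p6). In 1 place in the windows of the 40 genes, matches of different motifs overlapped. Of the 40 genes, 33 had a window. Below are the 120 bases before the start of 5 genes that carry both a CHR and an NF-Y box and of 2, Pttg1 and Mybl2, that carry none of these letters in the whole window. Nuf2, Nusap1, Mad2l1 and Birc5, not shown, also carry none. Capitals mark the NF-Y box (CCAAT or ATTGG) and the CHR (TTTGAA or TTCAAA), and each sequence runs 5′ to 3′ on the gene's own strand.
Ube2c: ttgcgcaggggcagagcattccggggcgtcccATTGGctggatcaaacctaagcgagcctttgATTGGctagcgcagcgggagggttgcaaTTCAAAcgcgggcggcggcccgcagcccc
Cdk1: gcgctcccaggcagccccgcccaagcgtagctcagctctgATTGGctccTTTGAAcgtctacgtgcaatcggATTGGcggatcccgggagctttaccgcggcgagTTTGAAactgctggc
Top2a: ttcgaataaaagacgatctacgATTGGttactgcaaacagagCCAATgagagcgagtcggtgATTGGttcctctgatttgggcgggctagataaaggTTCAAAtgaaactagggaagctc
Cdc20: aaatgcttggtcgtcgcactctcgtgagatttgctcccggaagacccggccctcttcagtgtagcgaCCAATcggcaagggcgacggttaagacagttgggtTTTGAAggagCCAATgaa
Kif11: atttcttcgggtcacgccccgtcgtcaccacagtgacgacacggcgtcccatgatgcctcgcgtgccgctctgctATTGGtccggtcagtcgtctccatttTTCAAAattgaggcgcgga
Pttg1: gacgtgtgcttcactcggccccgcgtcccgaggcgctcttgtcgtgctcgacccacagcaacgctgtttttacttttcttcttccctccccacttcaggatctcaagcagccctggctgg
Mybl2: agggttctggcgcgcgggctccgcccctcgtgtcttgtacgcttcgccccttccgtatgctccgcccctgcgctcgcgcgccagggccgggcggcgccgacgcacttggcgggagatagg
In the order shown, they lie at chr2:164769809-164769928 (plus strand), chr10:69352913-69353032 (minus strand), chr11:99024190-99024309 (minus strand), chr4:118437344-118437463 (minus strand), chr19:37376262-37376381 (plus strand), chr11:43425982-43426101 (minus strand) and chr2:163054515-163054634 (plus strand).

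A CHR was found in 23 of the 33 windows (69.7%), against 20.2% of the windows of 27025 genes. An NF-Y box was found in 24 of 33 (72.7%), against 41.1% of all windows. Both were found in 20 of 33 (60.6%), against 7.97%. The E2F letters were found in 1 of 33 (3.03%), against 2.60%. Of the 36 DNA replication and S phase genes used for comparison, 28 had a window, and of these 4 (14.3%) held a CHR, 17 (60.7%) an NF-Y box and 12 (42.9%) an E2F match. By position, 21 of the division genes had a CHR between 50 bases before and 50 bases after the start. In each 25-base bin of that stretch, 9.09% to 24.2% of their windows held a CHR, beside 0.962% to 1.49% of all windows. From 0 to 25 bases after the start, 24.2% of their windows held a CHR, beside 1.25% of all windows. NF-Y boxes lay most often 75 to 50 bases before the start, in 39.4% of their windows. Among all windows that bin was also the highest, at 7.28%. A match is a run of letters and not a measured binding site. Only these exact letters were searched, so a window without a match may still hold a site spelled otherwise.

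**Figure D1:**
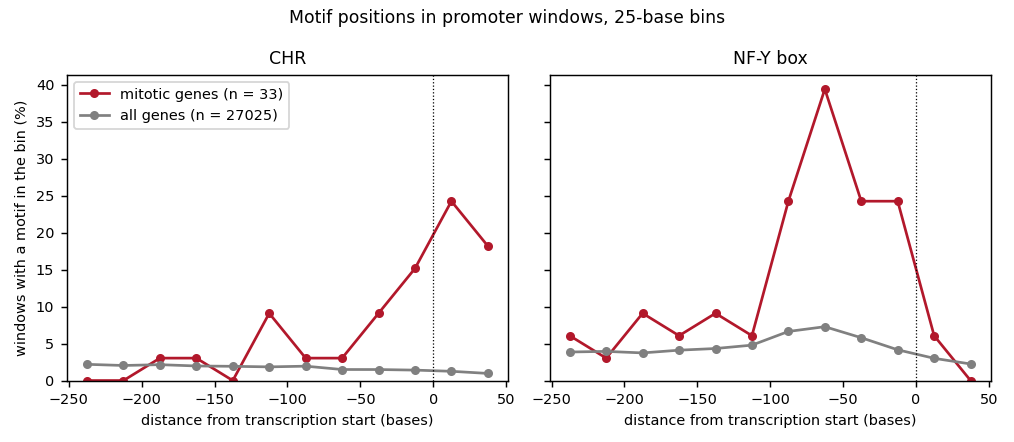
Share of promoter windows (percent, y axis) with a CHR (left) or an NF-Y box (right) by distance from the gene's start (bases, x axis, bins of 25), for the mitosis and G2/M genes with a window and for all genes with one. In the division genes, NF-Y boxes were most frequent 75 to 50 bases before the start (39.4% of windows, and 7.28% of all windows). Their CHR matches were most frequent just after it (24.2% from 0 to 25, and 1.25% of all windows).

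No gene of the 40 was at 0 in any library, and values ran from 2.53 TPM (Cenpf) to 201 TPM (Ube2c). Since TPM is corrected for length, levels can be compared between genes. Ube2c, Cdk1 and Top2a were the highest in mean over the 12 libraries, and Ndc80, Espl1 and Cenpf the lowest. The DMSO and CDCA libraries spread more than the others. The median coefficient of variation over the 40 genes (SD as a percent of the mean) was 15.5% in DMSO, 6.26% in CA, 17.9% in CDCA and 6.36% in DCA, and over all tested rows it was 14.1%, 8.44%, 11.4% and 6.86%. The 40 genes moved together within these groups. DMSO replicate 3 was the highest of its group for 37 of them and replicate 1 the lowest for 29, against 69.9% and 49.1% of all tested rows. CDCA replicate 1 was the highest for 38 and replicate 3 the lowest for 36, against 59.5% and 48.6%. Their summed level was 1571, 1755 and 2031 TPM in the DMSO libraries and 1855.5, 1649 and 1379 TPM in the CDCA libraries. It was 1442, 1540 and 1475 TPM in CA and 887, 862 and 918 TPM in DCA, so every DCA library was below every other library, and CDCA replicate 3 was below all CA libraries. DMSO replicate 1 and CDCA replicate 3 were also the lowest of their groups in the summed level of 11 crypt stem cell markers (545 and 364 TPM) and the highest in that of 12 enterocyte markers (3027 and 3203 TPM). Without both, a choice made after seeing the data, the genes called by limma at an adjusted p under 0.05 against DMSO numbered 15 in CA (0 with all libraries), 0 in CDCA (0) and 38 in DCA (38). Between the acids they numbered 1 in CDCA against CA (0), which was Nuf2 and was higher with CDCA. With DCA they numbered 37 against CA (35) and 39 against CDCA (38). The shares of all tested rows that were lower also rose. Against DMSO they were 2.93% in CA (0.00837% with all libraries), 0.0925% in CDCA (0.0837%) and 25.1% in DCA (19.2%). Between the acids they were 2.88% in CDCA against CA (0.0251%), 14.7% in DCA against CA (8.94%) and 22.1% against CDCA (15.0%). In CDCA against CA, 96 of 11895 tested rows were higher (1 of 11952 with all libraries).

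**Figure D2:**
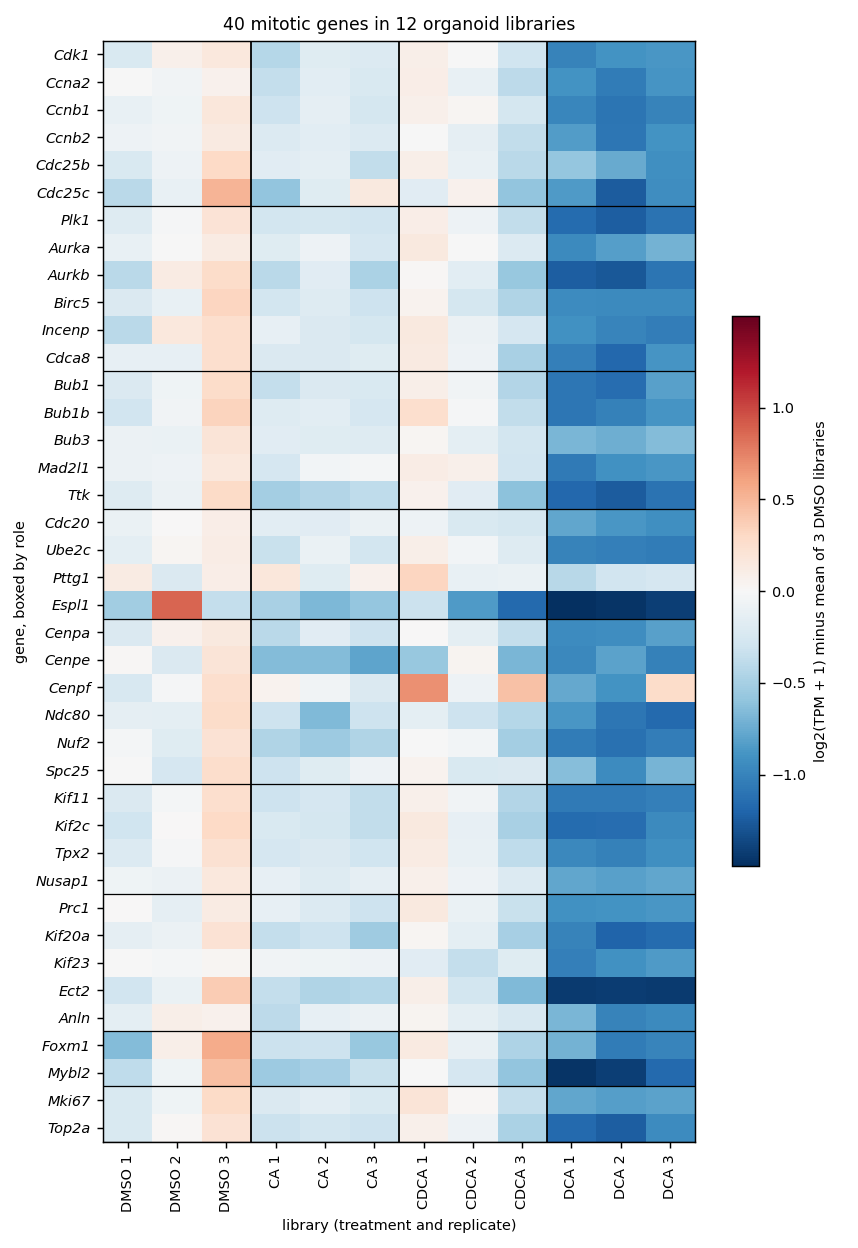
Each library's log2(TPM + 1) for the 40 genes (rows, by role) as the difference from the gene's mean over the 3 DMSO libraries (colour, log2 units), with libraries in columns by group. The 3 DCA columns are low for nearly all genes, and Cenpf in DCA replicate 3 is an exception. DMSO replicate 3 is high, and CDCA replicate 1 is the highest CDCA column for most genes.

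With DCA, 38 of the 40 genes (95.0%) fell against DMSO and none rose, at an adjusted p under 0.05 in limma (Benjamini-Hochberg over all tested rows). Of all 11952 tested rows, 2300 fell (19.2%). Every one of the 40 differences was below 0, with a median log2 difference of -0.96 and a range from -1.46 (Espl1) to -0.32 (Pttg1), against a median of -0.02 over all tested rows. In 39 of the 40 the DCA libraries lay below all DMSO libraries without overlap, as they did in 26.0% of all tested rows. The level in DCA as a percent of that in DMSO had a median of 48.9%, and 27 of the 40 lay between 45% and 60%. The lowest was Espl1 at 28.5% and the highest Pttg1 at 78.7%. The difference did not pass for Pttg1 and Cenpf.

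**Figure D3:**
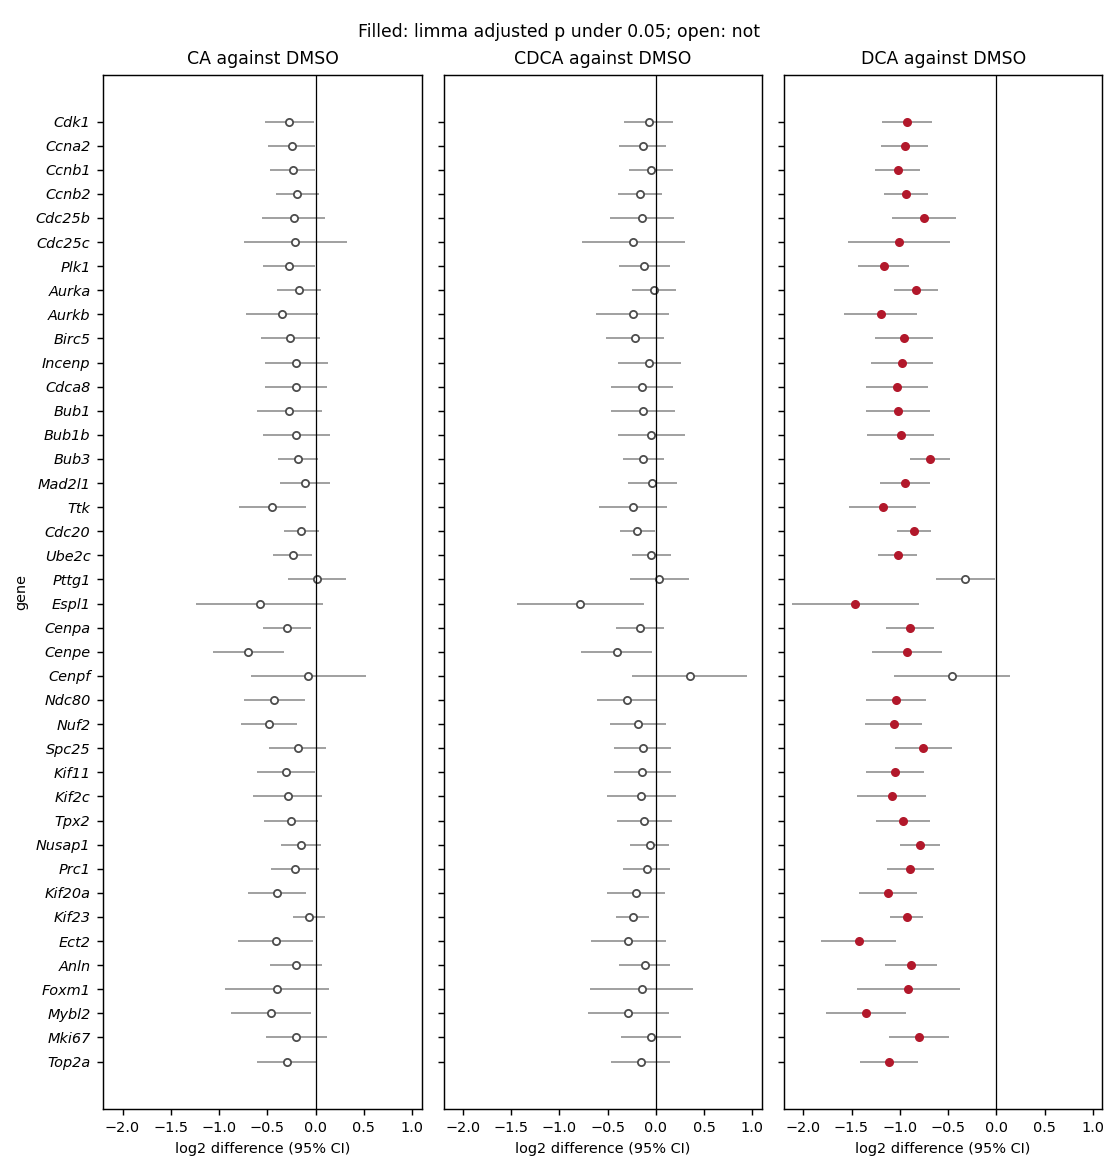
Log2 difference on the log2(TPM + 1) scale (x axis) of each of the 40 genes (y axis, by role) in CA, CDCA and DCA against DMSO, with bars for the 95% confidence interval from limma. DCA values run from -1.46 to -0.32, and most CA and CDCA values lie between those and 0.

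Other measures moved with the DCA group. The summed crypt stem cell markers were at 177 to 199 TPM in DCA and 545 to 1107 TPM in DMSO, and 10 of 11 fell (median log2 difference -1.65). The summed enterocyte markers were at 5471 to 7382 TPM in DCA and 1838 to 3027 TPM in DMSO, and 11 of 12 rose (median 1.499). Of the Paneth cell markers 6 of 8 fell, of the goblet cell markers 4 of 8, of the enteroendocrine markers 5 of 8, and of the tuft cell markers all 4 tested of 6. Among all 11952 tested rows, 2300 fell (19.2%) and 2245 rose. Markers of cells outside the epithelium stayed low in all 12 libraries, at a sum of 3.65 to 6.43 TPM for 8 mesenchymal genes (Dcn listed at 0), 5.73 to 8.89 TPM for 8 immune genes and 2.31 to 3.58 TPM for 5 endothelial genes (Cdh5 listed at 0). Mitochondrial transcripts held 11.8% ± 0.814 of the TPM in DCA and 17.2% ± 2.74 in DMSO (SD, n = 3). The part of these measures in the fall of the division genes was not tested. When the mitochondrial and rRNA rows were dropped and other rows rescaled, a setting chosen after seeing the data, the median difference over all tested rows moved from -0.02 to -0.15 and that over the 40 genes to -1.10. The split of all called rows then moved from 2300 lower and 2245 higher to 4099 lower and 1715 higher, and 39 of the 40 genes fell.

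The cyclin-CDK engine fell in all 6 members, with a median log2 difference of -0.94. Cdk1, the kinase that drives entry into mitosis, was at 152, 187 and 199 TPM in DMSO, 132, 157 and 154 TPM in CA, 189, 177 and 144 TPM in CDCA, and 88.3, 94.9 and 96.7 TPM in DCA. The highest DCA library was well below the lowest of any other group. The log2 difference of DCA against DMSO was -0.93 (95% interval -1.18 to -0.67, limma adjusted p = 0.000144). Ccnb1, cyclin B1, fell further, from 58.0, 60.0 and 70.9 TPM in DMSO to 31.5, 28.8 and 30.9 TPM in DCA, with CA at 50.4, 56.8 and 52.2 TPM and CDCA at 66.2, 64.3 and 52.1 TPM. Its log2 difference was -1.02 (-1.25 to -0.79, limma adjusted p = 4.78e-05). Cdc25b, a phosphatase that removes inhibitory phosphates from CDK1, moved least in this group. It was at 29.6, 33.02 and 42.9 TPM in DMSO and 23.0, 20.2 and 18.0 TPM in DCA, a difference of -0.75 (-1.08 to -0.42, limma adjusted p = 0.00216). CA and CDCA libraries of Cdc25b spanned 26.1 to 37.0 TPM and overlapped DMSO. Ccna2, Ccnb2 and the phosphatase Cdc25c fell by 0.95, 0.93 and 1.01 on the log2 scale.

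PLK1, the Aurora kinases and the chromosomal passenger complex, which together build the spindle and correct wrong attachments, fell in all 6 members (median -1.002). Birc5 (survivin) targets the passenger complex to centromeres. It was at 61.5, 66.3 and 90.1 TPM in DMSO, 58.9, 62.7 and 57.5 TPM in CA, 74.1, 59.6 and 52.4 TPM in CDCA, and 36.7, 36.5 and 36.4 TPM in DCA. The 3 DCA libraries were nearly equal while DMSO spread widely, and the difference was -0.95 (-1.25 to -0.65, limma adjusted p = 0.000304). Aurkb, the kinase of that complex, was the member that fell most. It stood at 39.8, 57.5 and 64.2 TPM in DMSO and at 21.8, 21.3 and 24.3 TPM in DCA, a difference of -1.20 (-1.58 to -0.82, limma adjusted p = 0.000296). The CA libraries of Aurkb (39.7, 46.9 and 37.8 TPM) and its CDCA libraries (53.3, 47.1 and 35.2 TPM) overlapped the low end of DMSO. Aurka, the kinase of spindle poles, fell least, from 33.3, 35.7 and 39.2 TPM to 18.0, 19.9 and 21.7 TPM, a difference of -0.83 (-1.06 to -0.60, limma adjusted p = 0.000147). Its CA libraries (31.7, 34.0 and 30.0 TPM) and CDCA libraries (39.8, 35.9 and 31.2 TPM) overlapped DMSO. Plk1, Incenp and Cdca8 fell by 1.17, 0.98 and 1.03 on the log2 scale.

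The 5 spindle assembly checkpoint genes all fell (median -0.99). Bub3, which brings other checkpoint proteins to the kinetochore, was the highest of them and fell least. It was at 52.3, 51.7 and 63.6 TPM in DMSO, 49.2, 48.9 and 48.6 TPM in CA, 56.6, 50.1 and 45.9 TPM in CDCA, and 34.3, 32.99 and 35.1 TPM in DCA. All CA libraries lay just below DMSO and all DCA libraries far below, with a difference of DCA against DMSO of -0.69 (-0.90 to -0.48, limma adjusted p = 0.000244). Ttk, the kinase MPS1 that starts checkpoint signalling, fell most. Its levels were 11.6, 12.5 and 16.5 TPM in DMSO, 9.08, 9.59 and 10.05 TPM in CA, 14.1, 11.8 and 8.401 TPM in CDCA, and 5.38, 5.06 and 5.67 TPM in DCA. The CA libraries lay below DMSO without overlap, and the DCA libraries below those. The difference of DCA against DMSO was -1.18 (-1.53 to -0.83, limma adjusted p = 0.000213). Bub1, Bub1b and Mad2l1 fell by 1.02, 0.99 and 0.95 on the log2 scale.

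Of the 4 genes of mitotic exit, 3 fell (median of the 4, -0.94), over a wide range. Ube2c, the enzyme that hands ubiquitin to the APC/C and the most abundant of the 40, was at 167, 189.8 and 201 TPM in DMSO, 147, 173 and 153 TPM in CA, 197, 181 and 162 TPM in CDCA, and 92.4, 90.9 and 88.9 TPM in DCA. The DCA libraries were separate from all others, and the difference was -1.02 (-1.22 to -0.82, limma adjusted p = 2.66e-05). The 120 bases of its promoter shown above hold 2 NF-Y boxes and a CHR, and its whole window holds 6 NF-Y boxes. A link between these letters and the difference was not tested. Cdc20, the activator that the checkpoint restrains, fell by 0.85 on the log2 scale. Pttg1, securin, which holds separase inactive, was at 21.5, 16.7 and 21.1 TPM in DMSO and 14.4, 15.9 and 16.3 TPM in DCA. The DCA libraries lay below DMSO by a narrow gap, and the difference of -0.32 (-0.62 to -0.02) had a limma adjusted p of 0.0896. Pttg1 passed without DMSO replicate 2 (-0.43, limma adjusted p = 0.0447). In CA it was at 22.2, 17.1 and 20.7 TPM and in CDCA at 24.8, 18.1 and 18.3 TPM, overlapping DMSO. Espl1, separase, the protease that cuts cohesin, had the largest difference of the 40, but 1 library set its size. It was at 9.35, 26.2 and 10.6 TPM in DMSO, 9.56, 8.32 and 8.96 TPM in CA, 10.8, 7.24 and 5.60 TPM in CDCA, and 4.25, 4.34 and 4.58 TPM in DCA. The difference of DCA against DMSO was -1.46 (-2.12 to -0.80, limma adjusted p = 0.00265), and without DMSO replicate 2 it was -1.02 (limma adjusted p = 0.00324).

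Of 6 centromere and kinetochore genes, 5 fell (median of the 6, -0.91). Cenpa, the histone variant that marks centromeres, was at 67.6, 81.8 and 87.3 TPM in DMSO, 58.9, 69.7 and 63.1 TPM in CA, 79.0, 71.0 and 60.9 TPM in CDCA, and 40.4, 40.7 and 44.0 TPM in DCA. The DCA libraries were separate from all others, and the difference from DMSO was -0.90 (-1.14 to -0.65, limma adjusted p = 0.000138). Nuf2, a subunit of the NDC80 complex that grips microtubules, fell most. It was at 23.2, 20.9 and 27.8 TPM in DMSO, 17.1, 16.0 and 17.1 TPM in CA, 23.6, 23.2 and 16.4 TPM in CDCA, and 11.02, 10.5 and 11.1 TPM in DCA. The difference of DCA against DMSO was -1.06 (-1.36 to -0.77, limma adjusted p = 0.000137). Its partners Ndc80 and Spc25 fell by 1.04 and 0.76 on the log2 scale, and the kinetochore motor Cenpe by 0.92. Cenpf, a large kinetochore and nuclear matrix protein, was the lowest of the 40 and the 1 whose libraries overlapped. It was at 4.56, 5.502 and 6.82 TPM in DMSO, 5.78, 5.31 and 4.66 TPM in CA, 9.51, 5.25 and 7.92 TPM in CDCA, and 2.87, 2.53 and 6.96 TPM in DCA. DCA replicate 3 lay above every DMSO library. The difference of -0.46 (-1.06 to 0.14) had a limma adjusted p of 0.209, and without DCA replicate 3 it was -0.83 (limma adjusted p = 0.0106).

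The 4 spindle genes fell (median -1.01). Nusap1, which bundles microtubules near chromosomes, was the highest and fell least. It was at 29.6, 29.1 and 34.7 TPM in DMSO, 28.4, 27.1 and 28.2 TPM in CA, 32.9, 29.4 and 26.8 TPM in CDCA, and 17.6, 17.2 and 17.6 TPM in DCA. The difference was -0.79 (-0.997 to -0.59, limma adjusted p = 0.000105). Kif2c, the kinesin MCAK that takes microtubules apart, fell most, from 13.6, 17.0 and 21.0 TPM in DMSO to 7.04, 7.13 and 8.24 TPM in DCA. Its CA libraries (14.3, 13.9 and 12.9 TPM) and CDCA libraries (18.8, 15.4 and 11.8 TPM) overlapped DMSO. The difference of DCA against DMSO was -1.08 (-1.44 to -0.73, limma adjusted p = 0.000381). Kif11, the motor that pushes spindle poles apart, and Tpx2, which activates Aurora A, fell by 1.05 and 0.96 on the log2 scale.

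Genes of the central spindle and of cytokinesis, the final cut between daughter cells, fell in 5 of 5 (median -0.93). Kif23, a motor of the centralspindlin complex, varied little within DMSO and within CA. It was at 53.4, 52.5 and 54.7 TPM in DMSO, 51.4, 51.2 and 50.7 TPM in CA, 47.3, 41.4 and 47.0 TPM in CDCA, and 25.8, 28.1 and 29.3 TPM in DCA. The 4 groups did not overlap, and the difference of DCA against DMSO was -0.93 (-1.10 to -0.76, limma adjusted p = 1.81e-05). Ect2, which switches on RhoA at the cleavage furrow, fell most. It was at 30.7, 35.03 and 49.2 TPM in DMSO, 29.1, 27.2 and 27.7 TPM in CA, 39.9, 30.9 and 23.4 TPM in CDCA, and 13.3, 13.4 and 13.3 TPM in DCA. The difference of DCA against DMSO was -1.43 (-1.81 to -1.04, limma adjusted p = 0.000133). Anln, anillin, a scaffold of the contractile ring, fell least, from 17.9, 21.1 and 20.8 TPM in DMSO to 11.99, 9.41 and 9.77 TPM in DCA, a difference of -0.88 (-1.15 to -0.62, limma adjusted p = 0.000232). Anln in CA (15.0, 18.1 and 18.7 TPM) and CDCA (20.5, 17.9 and 16.6 TPM) overlapped DMSO. Prc1, which crosslinks midzone microtubules, and the motor Kif20a fell by 0.89 and 1.12 on the log2 scale.

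Both transcription factors of the wave fell. Foxm1 had a wide spread in DMSO, at 12.01, 20.6 and 29.0 TPM, with 15.3, 15.4 and 12.8 TPM in CA, 21.3, 17.9 and 13.7 TPM in CDCA, and 11.5, 8.86 and 9.27 TPM in DCA. The highest DCA library lay just under the lowest DMSO library, and the difference was -0.91 (-1.45 to -0.38, limma adjusted p = 0.0115). Mybl2 (B-Myb) was at 11.8, 14.9 and 21.7 TPM in DMSO, 10.4, 10.8 and 12.2 TPM in CA, 15.6, 13.0 and 10.1 TPM in CDCA, and 5.04, 5.25 and 6.40 TPM in DCA. Its DCA libraries were clear of all others, and the difference was -1.35 (-1.77 to -0.93, limma adjusted p = 0.000267).

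Mki67 and Top2a are widely used to mark cycling cells. Mki67, which coats mitotic chromosomes, was at 23.9, 26.7 and 34.6 TPM in DMSO, 24.1, 25.0 and 23.9 TPM in CA, 32.3, 28.5 and 21.6 TPM in CDCA, and 16.0, 15.4 and 15.6 TPM in DCA. The mean was 28.4 ± 5.54 TPM in DMSO and 15.6 ± 0.295 TPM in DCA (SD, n = 3), and the difference was -0.80 (-1.12 to -0.49, limma adjusted p = 0.00101). Top2a, the topoisomerase that untangles sister chromosomes, was at 114, 135 and 155 TPM in DMSO, 107, 111 and 108 TPM in CA, 141, 127 and 95.7 TPM in CDCA, and 59.0, 56.2 and 69.3 TPM in DCA. Its difference was -1.11 (-1.42 to -0.81, limma adjusted p = 0.000134). For both, no DCA library reached any library of another group.

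**Figure D4:**
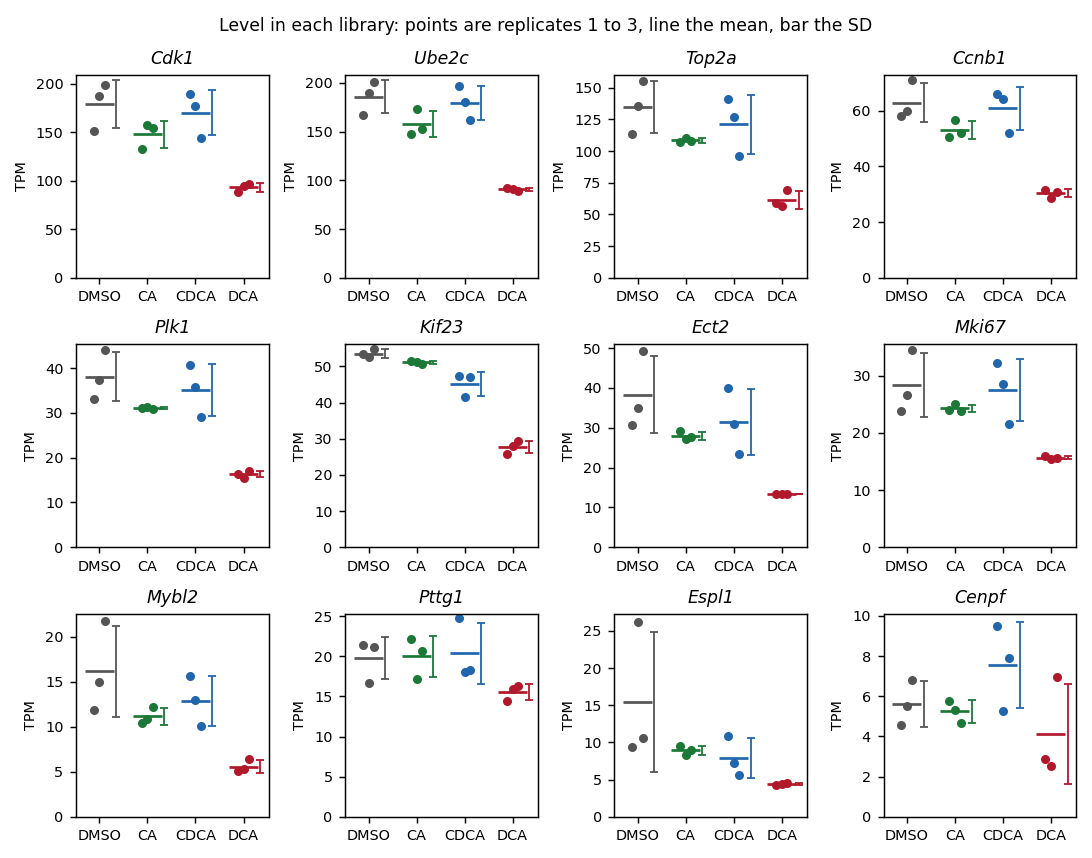
TPM (y axis, from 0) of 12 of the genes by group (x axis), with a point for each library, a line at the mean and a bar for the SD (n = 3). The 3 DCA libraries lie under all other libraries for each gene shown except Cenpf.

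With CA, none of the 40 genes passed against DMSO (smallest limma adjusted p = 0.0883), and 14 had an unadjusted p under 0.05, all lower. Among all tested rows 14.8% had such a p, and 3.45% had it and were lower. Among all tested rows 1 fell (0.00837%). Of the 40 differences, 39 were below 0, with a median of -0.24 against 0.03 over all tested rows. That median was -0.14 without DMSO replicate 3 and -0.36 without DMSO replicate 1. In 19 of the 40 the CA libraries lay below DMSO without overlap, against 5.21% of all tested rows. The level in CA as a percent of that in DMSO had a median of 84.1%. Cenpe, the kinetochore motor, had the smallest adjusted p. It was at 13.9, 11.6 and 15.9 TPM in DMSO and 8.41, 8.37 and 7.48 TPM in CA, a difference of -0.70, with every CA library below every DMSO library. Next was Nuf2 at -0.48 (limma adjusted p = 0.130). Of the 14, Mybl2 (-0.46), Ttk (-0.45), Ndc80 (-0.43), Ect2 (-0.41) and Kif20a (-0.40) followed, and the other 7, Kif11, Cenpa, Plk1, Cdk1, Ccna2, Ccnb1 and Ube2c, lay between -0.31 and -0.23. Without DMSO replicate 3 the 14 lay between -0.60 and -0.15, with Mybl2 at -0.24 and Ect2 at -0.22. The lowest bound of any of the 40 intervals was -1.24 and the highest 0.52, and 38 of the 40 intervals had a lower bound above -1. The count depended on the libraries that stood apart. Without CDCA replicate 3, 2 genes (Cenpe and Nuf2) passed, where 0.109% of all tested rows fell, and without DMSO replicate 1 alone 0 passed. Without both, 15 passed, all lower, where 2.93% of all tested rows fell. Those 15 included Aurkb (-0.55, limma adjusted p = 0.0105), Foxm1 (-0.72, 0.0150) and Cdk1 (-0.39, 0.0207).

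With CDCA, none passed against DMSO (smallest limma adjusted p = 0.275), and 4 had an unadjusted p under 0.05, all lower. That is 4 of 40, while 9.77% of all tested rows had such a p, and 3.10% had it and were lower. Among all tested rows 10 fell (0.0837%). The median difference was -0.14 against 0.02 over all tested rows, and 38 of the 40 were below 0. Single libraries set that median, which was -0.0028 without CDCA replicate 3, -0.017 without DMSO replicate 3 and -0.25 without CDCA replicate 1. Without overlap, 2 of 40 lay below DMSO (Ndc80 and Kif23), against 3.03% of all tested rows. The 4 were Espl1 (-0.78, limma adjusted p = 0.399), Cenpe (-0.41, 0.453), Kif23 (-0.24, 0.275) and Cdc20 (-0.19, 0.479). Espl1 was at -0.34 (0.746) without DMSO replicate 2, and Cenpe at -0.27 without CDCA replicate 3 and -0.63 without CDCA replicate 2. The 40 intervals reached from -1.44 to 0.95, and 28 of them had a lower bound above -0.5. The level as a percent of DMSO had a median of 90.5% and ran from 51.3% (Espl1) to 134% (Cenpf). In none of the leave-one-out settings did a gene pass.

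The acids were also compared with each other at the same labelled dose and time, in 3 pairs. CA carries 1 hydroxyl group more than either CDCA or DCA, which are isomers that differ in which hydroxyl of CA they lack. DCA and CDCA, the isomers, differed: 38 of 40 genes were lower with DCA (limma, adjusted p under 0.05), against 15.0% of all tested rows, with a median of -0.81 and a range from -1.14 (Ect2) to -0.36 (Pttg1). In 39 the libraries did not overlap, against 27.1% of tested rows. The 2 that did not pass were Pttg1 (-0.36, limma adjusted p = 0.0761) and Espl1 (-0.68, interval -1.34 to -0.02, 0.115). Cdk1 differed by -0.85 (limma adjusted p = 0.000818), Ube2c by -0.98 (0.000167), Mybl2 by -1.07 (0.00231) and Mki67 by -0.76 (0.00296). Cenpf passed at -0.81 (0.0446) although its libraries overlapped, and it no longer passed in 12 of 20 alternatives. Leaving out 1 library also ended the call for Cdc25b without CDCA replicate 1 (0.0551), for Cdc25c and Foxm1 without any 1 of several CDCA or DCA libraries, and for Cenpe, which was at -0.30 (limma adjusted p = 0.156) without CDCA replicate 2. Espl1 passed without DMSO replicate 2 (0.0148).

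DCA and CA, which differ by 1 hydroxyl group, differed for 35 of 40 genes, all lower with DCA, against 8.94% of all tested rows. The median was -0.71 and the range -1.01 (Ect2) to -0.23 (Cenpe). In 39 the libraries did not overlap, against 28.7% of tested rows. Cdk1 differed by -0.66 (limma adjusted p = 0.00555), Ube2c by -0.79 (0.00104), Kif23 by -0.86 (0.000199), Mybl2 by -0.89 (0.0116) and Mki67 by -0.60 (0.018). Leaving out 1 library ended the call for 8 genes: Mki67 (limma adjusted p = 0.066 without CA replicate 2, 0.0569 without DCA replicate 1 and 0.0667 without DCA replicate 2), Mybl2 (0.0522 without DCA replicate 1), Ttk (0.0565 without DCA replicate 2), Cdc25b, Cdc25c, Ndc80, Nuf2 and Spc25. The 5 that did not pass were Cenpe (-0.23, interval -0.59 to 0.14), Pttg1 (-0.34, -0.64 to -0.03), Cenpf (-0.39, -0.98 to 0.21), Foxm1 (-0.51, -1.05 to 0.02) and Espl1 (-0.88, -1.54 to -0.23). Of these, Espl1 passed without DMSO replicate 1 (limma adjusted p = 0.0475) or 2 (0.0113), Foxm1 without DMSO replicate 1 (0.0496) and Cenpf without DCA replicate 3 (0.0459). Pttg1 passed with only the 6 libraries compared (0.0428) and without mitochondrial and rRNA rows (0.0416). With only the 6 libraries, 38 of the 40 passed, where 18.2% of all tested rows were lower. Cenpe, at 6.56, 7.46 and 6.28 TPM in DCA, lay only slightly under its CA libraries, without overlap.

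CDCA and CA did not pass for any of the 40 (smallest limma adjusted p = 0.681). Among all tested rows 3 were lower with CDCA (0.0251%). The median difference of CDCA against CA was 0.13, and 36 of 40 were above 0. It was 0.011 without CDCA replicate 1 and 0.25 without CDCA replicate 3. Of the 40 intervals, 38 had a lower bound above -0.5, and the highest upper bound was 1.02. Nuf2 (0.30) and Kif23 (-0.17) had an unadjusted p under 0.05, 2 of 40 beside 7.20% of all tested rows, and Kif23 was the 1 gene with all CDCA libraries below CA, against 6.47% of tested rows. Without CDCA replicate 3 and DMSO replicate 1, Nuf2 passed at 0.46 (limma adjusted p = 0.0471), where 343 rows were lower and 96 higher of all 11895 tested. In the order of group means, 34 of the 40 genes ran DMSO, CDCA, CA, DCA from high to low and 4 ran DMSO, CA, CDCA, DCA. DCA was the lowest of the 4 groups for all 40, and no difference among DMSO, CDCA and CA passed for any of them. The comparisons share groups, so these orders are a description.

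The other genes of the pathway were taken from lists by function, 126 genes in all, each tested. With DCA, 99 fell against DMSO and 2 rose (limma, adjusted p under 0.05), with a median of -0.73. Against CA 69 fell and 1 rose, and against CDCA 91 fell. Of all tested rows, 19.2% were lower with DCA against DMSO, 8.94% against CA and 15.0% against CDCA. None of the 126 passed in the other 3 comparisons. There 25 (CA against DMSO), 4 (CDCA against DMSO) and 3 (CDCA against CA) had an unadjusted p under 0.05. That is 19.8%, 3.17% and 2.38%, beside 14.8%, 9.77% and 7.20% of all tested rows. In the same order, 24 (19.0%), 3 (2.38%) and 0 had such a p and were lower. Among all tested rows these shares were 3.45%, 3.10% and 5.40%. Of other spindle genes 26 of 27 fell (median -0.95), among them Stmn1, which binds free tubulin, from 173 ± 39.95 to 52.1 ± 4.58 TPM (SD, n = 3; -1.69, limma adjusted p = 7.46e-05), and Ran, the GTPase that guides spindle assembly (-0.63, 0.000708). All 5 other mitotic kinases fell (median -1.004), including Pbk (-1.32, 0.000124) and the centrosome kinase Nek2 (-0.88, 0.00016). Of other kinetochore and centromere genes 32 of 37 fell (median -0.88), with Pmf1, a subunit of the MIS12 complex, at -0.56 (0.00163).

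In the APC/C list 6 of 15 were lower with DCA against DMSO, with a median of -0.29, beside 19.2% of all tested rows. Its ubiquitin-chain enzyme Ube2s fell by 0.73 on the log2 scale (limma adjusted p = 0.000156). The core subunit Anapc5 was at 84.5, 87.2 and 104.9 TPM in DMSO and 91.3, 48.2 and 57.2 TPM in DCA, overlapping, with a difference of -0.53 (limma adjusted p = 0.0513) that passed without DCA replicate 1 (-0.79, 0.00326). Of cohesin, shugoshin and condensin genes 14 of 19 fell (median -0.58). The cohesin subunit Rad21 fell by 0.35 (0.00475), and Wapl, which releases cohesin, was at 0.13 (0.282), with the sign turned (-0.01) when mitochondrial and rRNA rows were left out. Of CDK1 inhibitors and partners 8 of 10 fell (median -0.73). The CDK subunit Cks2 fell by 0.38 (limma adjusted p = 0.00851), and Arpp19, an inhibitor of the phosphatase that opposes CDK1, was at -0.24 (0.134). Of the DREAM, MuvB and NF-Y genes 8 of 13 fell (median -0.39), with Rbbp4 at -0.81 (0.000544) and the E2F partner Tfdp1 at -0.89 (0.000859).

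The 2 that rose with DCA belong to lists that mostly fell. Hjurp, the chaperone that loads CENP-A at centromeres, was at 64.5, 67.8 and 74.5 TPM in DMSO and 89.1, 86.6 and 83.2 TPM in DCA. All DCA libraries lay above DMSO, opposite to Cenpa itself, and the difference was 0.32 (0.16 to 0.49, limma adjusted p = 0.00535). Rbl2 (p130), the pocket protein of the DREAM complex, was at 7.46 ± 1.67 TPM in DMSO and 9.66 ± 0.605 TPM in DCA (SD, n = 3), a difference of 0.35 (limma adjusted p = 0.0472) that no longer passed in 16 of 20 alternatives. The 36 DNA replication and S phase genes, which act earlier in the cycle, all fell with DCA against DMSO, with a median of -1.26 beside -0.96 for the 40 genes of division, and no test was made between the lists. Against CA 33 of the 36 fell and against CDCA all 36. The shares of all tested rows that were lower with DCA were 19.2% against DMSO, 8.94% against CA and 15.0% against CDCA. None passed in CA or CDCA against DMSO, with medians of -0.39 and -0.23.

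**Figure D5:**
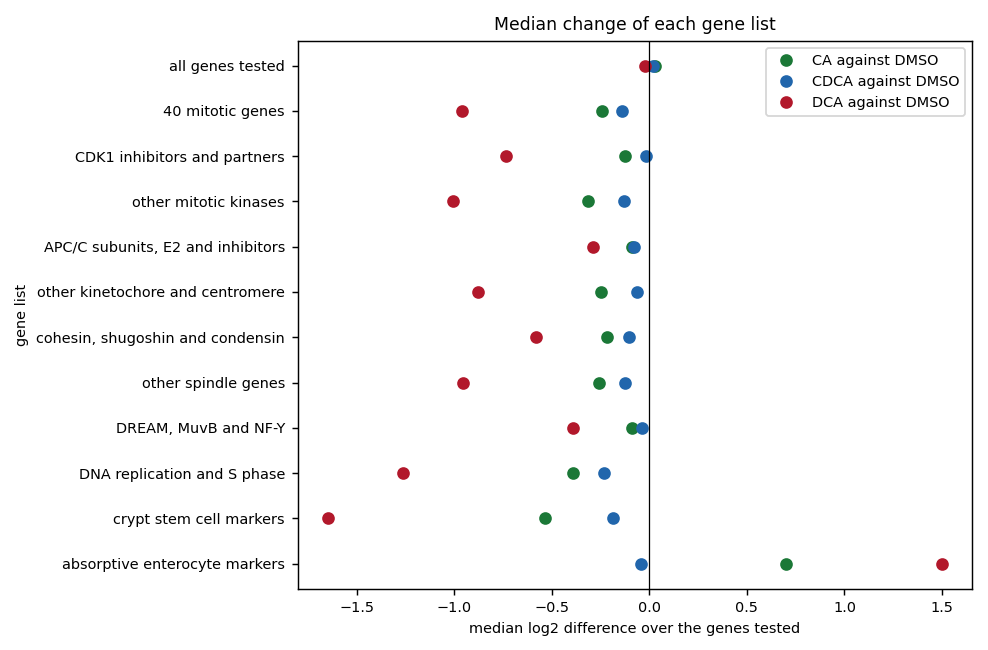
Median log2 difference on the log2(TPM + 1) scale against DMSO (x axis) for all tested rows, the 40 genes, each list of other pathway genes, the S phase list and the stem cell and enterocyte markers (y axis), with 1 colour each for CA, CDCA and DCA. With DCA the medians of the cell cycle lists run from -0.29 (APC/C) to -1.26 (S phase), all tested rows are at -0.02, and enterocyte markers are at 1.499.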

How the data were processed

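Per the labels' protocols, poly(A) RNA was sequenced from both ends as strand-marked libraries. The authors deposited TPM values, 1 table per library, made with Salmon 1.8.0 on build GRCm39 per the submitters' processing notes. Read depth cannot be had from TPM, so single values have no stated precision, and as a share of a total TPM moves with abundant transcripts. Library sums over the rows were 889156 to 936841 TPM. Groups came from the sample labels.

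Values were taken as log2(TPM + 1), which understates changes of low genes, and rows reaching 1 TPM in 3 or more libraries entered the test. In R 4.3.3, limma 3.58.1 fitted 1 mean per group to the 12 libraries (mean-variance trend, robust moderation, two-sided), with Benjamini-Hochberg adjustment over all 11952 rows within each of 6 comparisons at a threshold of 0.05. Intervals are 95% intervals of limma, and SDs are over 3 libraries.

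Values in every library are given for Mki67, Top2a, Foxm1 and Mybl2 and, in each other role, for the gene with the highest mean TPM and those with the largest and smallest difference of DCA against DMSO. Of each list of other pathway genes the 2 highest in mean TPM are named, plus any called against its list. The members and lists were chosen with earlier results of these data known. Promoter windows are from RefSeq on GRCm38.p6, another build than that of the values, and were matched by symbol for 33 of 40 genes. Alternatives were no filter on low values, median-ratio scaling, a pseudocount of 0.1, a replicate block, no trend or robust moderation, only the 6 libraries compared and each library left out. Leaving out 2 libraries together and leaving out 13 mitochondrial and 2 rRNA rows were added after seeing the data.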

Additional observations from a re-analysis of the deposited data

How the results depend on the processing

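In the comparisons with DCA, no difference of the 40 genes turned its sign in any of the 20 alternatives. In the others, signs were followed only for genes with an unadjusted p under 0.05. These were 14 for CA against DMSO, 4 for CDCA against DMSO and 2 for CDCA against CA, and none turned. The remaining genes were not followed there, and the median over the 40 for CDCA against DMSO came as near 0 as -0.0028. Of the other pathway genes named, followed in DCA against DMSO, only Wapl turned (-0.0067 with mitochondrial and rRNA rows left out). With each library left out in turn, the genes called ranged from 0 to 2 for CA against DMSO (1 without CDCA replicate 2), 0 to 0 for CDCA against DMSO, 38 to 39 for DCA against DMSO, 0 to 0 for CDCA against CA, 28 to 37 for DCA against CA and 33 to 38 for DCA against CDCA. Without both CDCA replicate 3 and DMSO replicate 1, 15 were called for CA against DMSO, all lower, and 1 for CDCA against CA, which was higher. CDCA replicate 3 is in neither group of CA against DMSO. Leaving it out alone kept those differences and changed the spread estimated from all libraries and the rows tested. Cenpe stayed at -0.70, and its limma adjusted p moved from 0.0883 to 0.0372. The cause of the change in counts was otherwise not tested. In DCA against DMSO no gene that passed was lost in any alternative. In DCA against CA, 34 single values no longer passed, 10 of them Cdc25c and 9 Cdc25b, and in DCA against CDCA also 34, 12 of them Cenpf and 8 Cenpe.

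Deviations of same-numbered libraries from their group means had a correlation over 0.1 in 3 of 18 pairs (-0.38 to 0.11). For differently numbered libraries it was over 0.1 in 9 of 36 pairs (-0.25 to 0.43). Deviations sum to 0 within each group of 3, so these correlations depend on one another. They do not settle whether replicates were paired. With the replicate block, 0, 0, 38, 0, 33 and 36 of the 40 genes were called in the order of comparisons above. Counts of all tested rows that were lower moved more: without mitochondrial and rRNA rows from 2300 to 4099 for DCA against DMSO, 1069 to 2068 for DCA against CA, 1790 to 3325 for DCA against CDCA and 10 to 22 for CDCA against DMSO (26 with median-ratio scaling). For CA against DMSO the count was 1, and 0 to 20 with 1 library left out; for CDCA against CA it was 3, and 2 to 32. For CDCA against DMSO it ranged from 3 to 26 over the settings, and for DCA against CA from 373 to 2115. In DCA against CA, 60.7% of called rows were lower, 49.6% with median-ratio scaling and 76.1% without the mitochondrial and rRNA rows. TPM keeps no depth, which limits what can be said of the lowest genes, Cenpf and Espl1.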
